A study of Nothobranchius furzeri with 168 samples.

Results

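The skin of male turquoise killifish (Nothobranchius furzeri) of the strain MZM-0403 was compared between day 287, with 6 fish, and day 35, with 5 fish. These 11 libraries were chosen by their labels alone, as all libraries from skin of MZM-0403 males at those ages, out of 168 libraries in the series and 84 from skin. RNA sequencing had been done on brain and skin of each fish, and read counts per gene were deposited. The labels name no treatment, transgene or mutation, so the groups share strain, sex and tissue and differ in age. They do not say whether the fish of an age were siblings or shared a tank. P-values therefore measure the spread between fish within the groups of a fit, pooled over all groups in that fit. The main fit also held skin of day 21 males and day 147 females of MZM-0403, 22 libraries in all. The brain fit held the same ages and sexes. Later comparisons use skin of GRZ-D males at days 35 and 147. They also use skin of MZCS-0403 males at days 21, 39 and 147, scaled together with females of day 217.

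The turquoise killifish is an annual fish of seasonal African ponds that grows to sexual maturity within weeks of hatching and has one of the shortest lifespans among vertebrates kept in the laboratory. The series sets the short-lived strain GRZ-D beside longer-lived strains, of which MZM-0403 is one. Fish skin is a living epidermis of keratinocytes and mucous cells over a collagen-rich dermis that bears scales, pigment cells, vessels and nerves. A skin sample mixes all of these cells, so fewer cells of a type and less RNA per cell cannot be told apart in these data. The deposited gene IDs carry no names, and 0 of them matched the reference table of gene names. Lists of skin cell markers, matrix, cell cycle and immune genes use names and could not be applied, and no gene can be given a function here.

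The 11 libraries held 16861758 to 36230200 counts, so that 3 counts in a library correspond to 0.0828 to 0.178 CPM, that is counts scaled to the size of the library. As a check of the tissue label in the absence of named markers, each library was correlated across genes with the mean day 21 profile of MZM-0403 skin and of MZM-0403 brain. All 11 were nearer to skin, with Pearson's r of 0.922 to 0.950 against the skin profile and 0.481 to 0.533 against the brain profile. Day 35 replicates 4 and 7 stood apart from the other day 35 libraries. Their mean r with their own group was 0.920 and 0.927, against 0.946 to 0.947 for the other 3.

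Skin at day 287 differed from skin at day 35 in close to every second gene that could be tested. In a fit of the 22 skin libraries of MZM-0403, 8725 of 19529 genes (44.7%) were called at an adjusted p under 0.05 with edgeR's quasi-likelihood test. Of all genes tested, 3910 (20%) were higher at day 287 and 4815 (24.7%) were lower. Lower genes made up 55.2% of those called, but with libraries scaled by total counts only the balance turned, to 4073 higher and 3789 lower. The median log2 fold change over all genes tested was -0.04, and it was 0.05 under that scaling. Leaving out 1 library at a time gave 7888 to 9482 genes called. The call held whichever library was left out for 6514 genes (74.7% of those called), of which 2997 were higher and 3517 lower at day 287. Without both day 35 replicates that stood apart, 8699 genes were called, 4123 higher and 4576 lower.

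Of the 8725 genes called, 3765 changed at least 2-fold, so most of the changes were smaller than that. These 3765 were 19.3% of all genes tested, with 1505 (7.71%) higher and 2260 (11.6%) lower at day 287. The median log2 fold change was 0.85 among genes called higher and -0.96 among genes called lower. Near the lower end of the range the directions were balanced, with 574 genes higher and 588 lower by less than 0.5 on the log2 scale. Between 2 and 3 on the log2 scale there were 177 genes higher and 372 lower. At 4 or more there were 12 higher and 124 lower, so that lower genes made up 91.2% of the largest changes. With total counts only these were 12 and 117. Against day 21 males in the same fit, 82 genes were higher and 49 lower at day 287 by 4 or more. The excess of lower genes among the largest changes was thus found against day 35 and not against day 21. It was not recounted with a library left out. At 2-fold or more, 1538 genes were higher and 1960 lower without day 35 replicate 4. Without day 287 replicate 4 there were 1511 and 1972. With any other library left out, 2134 to 2519 were lower. Some of the called genes had almost no counts at one age. Among genes called lower, 26 had at most 3 counts in every day 287 library, 5 of them with a mean of at least 5 CPM at day 35. Among genes called higher, 9 had at most 3 counts in every day 35 library, and 0 of these reached a mean of 5 CPM at day 287. How many of all genes tested had so few counts at each age was not computed, so the 26 and the 9 are a description only.

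**Figure D1:**
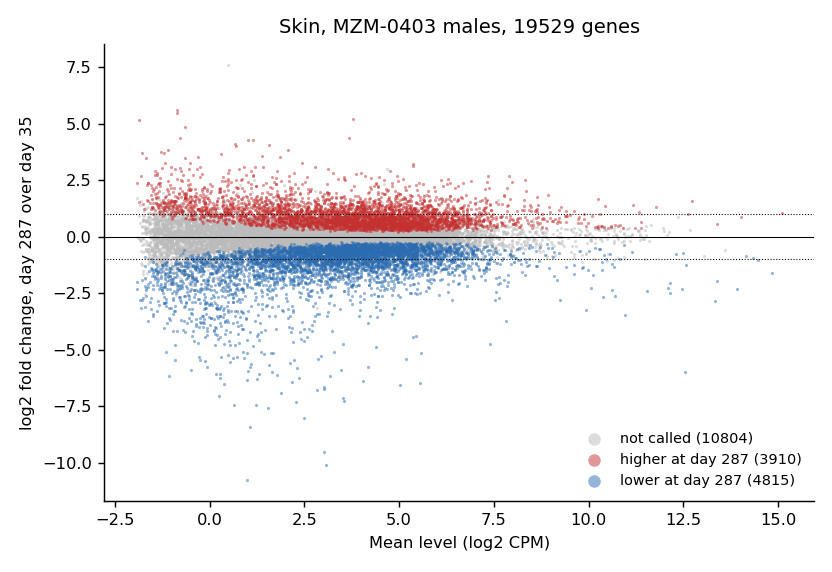
Each point is 1 of 19529 genes, with the mean level over the skin libraries of MZM-0403 (log2 CPM, horizontal) and the log2 fold change of day 287 over day 35 (vertical). The 3910 genes called higher are red, the 4815 called lower are blue, dotted lines mark a 2-fold change, and the largest changes lie mostly below 0.

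The balance of directions was not the same at every level of expression. Among the 7575 genes with a mean of 1 to 10 CPM, 15.6% were higher and 26.8% lower at day 287. The 8379 genes between 10 and 100 CPM were near balance, with 25% higher and 26.5% lower. Among the 857 genes between 100 and 1000 CPM the order was the other way round, with 33.4% higher and 18.8% lower. Of the 143 genes above 1000 CPM, 30 were higher and 30 lower, but changes of at least 2-fold were found in 8 higher and 21 lower. The lowest share of calls was found below 1 CPM, where 26.8% of 2575 genes were called and counts are lowest.

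A few abundant genes carried much of the shift in the RNA of the tissue. The genes called lower lost 233126 CPM in total between the group means, and 10 of them made up 50.4% of that loss. The genes called higher gained 170924 CPM, of which the first 10 made up 41.8%. In both cases the 10 were ranked by their own change, and the shares were not recomputed with a library left out. Of the 20 genes with the highest mean at day 287, 6 were called higher and 7 lower, while of the corresponding 20 at day 35, 3 were called higher and 14 lower. The lists had 13 genes in common. A list drawn from the means of a single age favours genes that were higher at that age, so these counts are a description only. Among the 143 genes above 1000 CPM by the mean of both ages, 30 were called higher and 30 lower. Of all genes tested, 20% were higher and 24.7% lower.

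In terms of counts, the genes called higher at day 287 took 45.5%, 36.4%, 36.1%, 40.6%, 38.3% and 36.8% of the counts of day 287 replicates 1 to 6. At day 35 they took 21.9%, 17.2%, 23.6%, 16.6% and 18.7% of the counts of replicates 12, 13, 2, 4 and 7. For the genes called lower the shares were 13.6%, 18.6%, 17.9%, 13.1%, 17.4% and 16.5% at day 287, against 36.8%, 41.5%, 33.9%, 44.7% and 33.8% at day 35. These genes were chosen by this comparison, so the separation of the groups is a description and not a test. The remaining skin libraries of the strain were not part of the contrast, but they shared its fit and so its filter, scaling and spread. Day 21 males had 17.4% to 22.9% of their counts in the genes called higher and 37.6% to 43.7% in the genes called lower. Day 147 females had 16.7% to 27.8% and 23.2% to 39.0%. Every day 21 and day 147 library held a lower share of the higher genes than any day 287 library, whose shares the choice of genes favours.

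**Figure D2:**
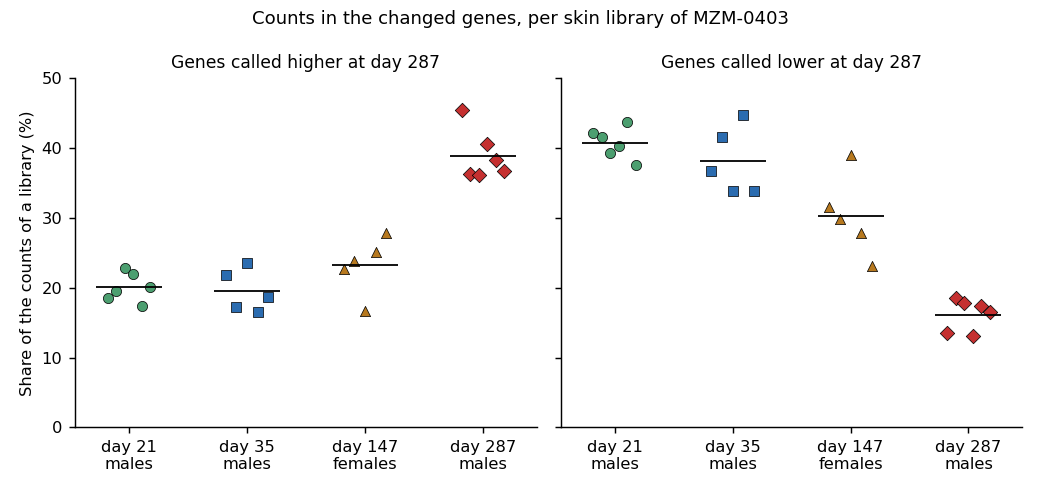
Share of the counts of each skin library of MZM-0403 (%) in the 3910 genes called higher (left) and the 4815 called lower (right) at day 287 than at day 35, by age and sex, 1 point per library and a line at the group mean. The day 287 libraries lie at 36.1% to 45.5% on the left and 13.1% to 18.6% on the right, apart from the other 3 groups.

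The breadth of expression did not change detectably. The number of genes with at least 1 CPM was 16624 ± 175 at day 287 and 16624 ± 387 at day 35 (SD, n = 6 and 5; 2-sided exact permutation test, p = 1, adjusted p = 1 over 2 library measures). A library's top 10 genes took 15.8% to 20.3% of its counts at day 287 and 17.5% to 23.7% at day 35. The difference of the means, -1.99 percentage points, was within the spread of the libraries (exact permutation p = 0.186, adjusted p = 0.372). The smallest p that 462 splits allow is 0.00433. For the top 50 genes the share was 32.9% ± 1.98 at day 287 and 37.7% ± 3.55 at day 35 (SD, n = 6 and 5; exact permutation p = 0.0130, not adjusted).

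The day 287 libraries resembled each other more closely than the day 35 libraries did. The median SD of a gene's log2 CPM was 0.274 at day 287 and 0.411 at day 35, and it was larger at day 35 in 73.6% of genes. With 1 library left out at a time these medians were 0.252 to 0.282 at day 287 and 0.315 to 0.426 at day 35. Replicates 4 and 7 of day 35, with a mean r of 0.920 and 0.927 with their own group, were not left out together here. Whether the remaining day 35 libraries spread more than the day 287 libraries was therefore not tested. Pairs of day 287 libraries correlated at r of 0.951 to 0.977 across genes, and pairs of day 35 libraries at 0.914 to 0.976. Between the ages r was 0.838 to 0.925. For comparison the median SD was 0.306 in day 21 males and 0.362 in day 147 females. The main test pooled the spread of a gene over all these groups, although the median SD was largest at day 35. Nothing in these values tells biological spread from that of dissection or library preparation.

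On the principal components of the 22 libraries, the 6 day 287 libraries formed a compact group away from all others. On component 1, which held 28.3% of the variance, day 21 males lay at -89.9 to -60.1, day 35 males at -33.8 to 8.52, day 147 females at -1.76 to 34.6 and day 287 males at 52.3 to 84.6. The male groups followed the order of age without overlap. Component 2 held 19.5% of the variance and did not follow age. Here day 21 males (24.9 to 40.5) and day 287 males (36.4 to 53.0) lay on the same side, away from day 35 males (-56.8 to -3.65) and day 147 females (-69.1 to -29.1).

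**Figure D3:**
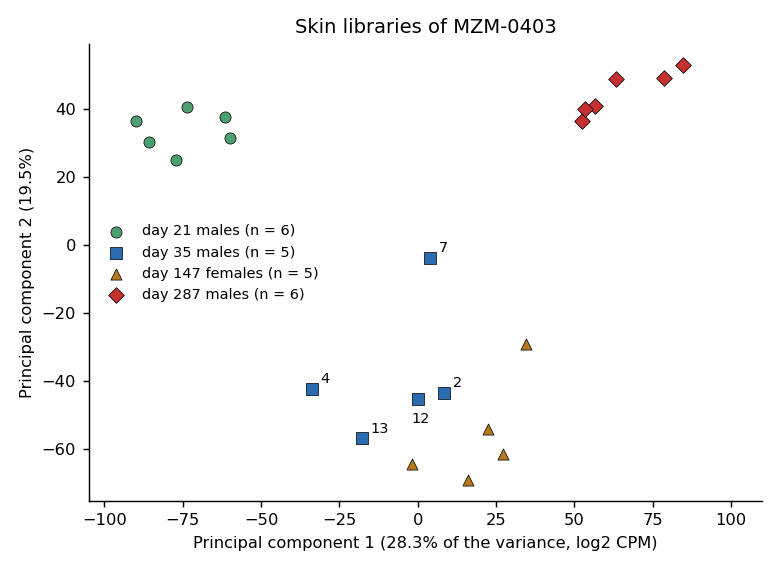
Principal components 1 and 2 (28.3% and 19.5% of the variance of log2 CPM) of the 22 skin libraries of MZM-0403, 1 point per library, with the replicate numbers of the day 35 males. Day 287 males lie at 52.3 to 84.6 on component 1, to the right of every other library, and day 35 replicates 4 and 7 lie at the edges of their group.

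Set against the younger day 21 males, day 287 skin differed in 9675 of 19529 genes (49.5%), 5005 higher and 4670 lower at day 287, or 5986 and 3056 with libraries scaled by total counts. This comparison shares the day 287 libraries with the one above, so only its own counts are given. Day 147 females against day 21 males share no library with day 287 against day 35 males, and in that comparison age and sex cannot be told apart. There 5895 of all 19529 genes (30.2%) were higher in day 147 females and 4034 (20.7%) lower, with a median log2 fold change of 0.10. Of the 3910 genes higher at day 287 than at day 35, 28.9% were higher and 26% lower in day 147 females, with a median of 0.02. Of the 4815 genes lower at day 287, 42.2% were higher and 13.9% lower in day 147 females, with a median of 0.35. The share of the lower genes that were higher in day 147 females was 39.3% with DESeq2's size factors and 47.9% with total counts only. The scaling moves the median of this comparison, which was 0.04 with DESeq2's size factors and 0.26 with total counts only.

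The genes with the largest changes were ranked among those with no overlap between the libraries of the ages, 5 CPM or more on average in the higher group and a call that held with any library left out. Of the 19529 genes tested this left 1789 higher and 1716 lower at day 287, and the first 2 in each direction are described. Non-overlap itself was found for 4395 of the 8725 genes called (50.4%), 2233 higher and 2162 lower. A call favours genes without overlap, and the share without overlap over all genes tested was not computed.

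Nfu_g_1_016796 had 32.5, 29.7, 22.8, 31.0, 64.3 and 3.34 CPM in day 287 replicates 1 to 6, against 1.13, 1.37, 1.68, 1.29 and 1.98 CPM in day 35 replicates 12, 13, 2, 4 and 7. All day 287 libraries were above all day 35 libraries, but replicate 6 was far nearer to them than the other 5. The log2 fold change was 4.37 (SE 0.62, edgeR adjusted p = 1.43e-05). Day 21 males were at 1.54 to 2.73 CPM, while day 147 females spread over 2.92 to 32.3 CPM, with 3 of 5 fish at 17.3 CPM or more. The gene is also expressed in brain, where its level was high at both ages. Brains of the same fish had 46.0 to 74.5 CPM at day 287 and 34.7 to 53.3 CPM at day 35 (log2 fold change 0.35, SE 0.11, edgeR adjusted p = 0.0148). The age change was larger in skin than in brain by 3.72 on the log2 scale (SE 0.53, edgeR adjusted p = 0.000815). In skin of GRZ-D it was 2.46 to 3.12 CPM at day 147 and 0.588 to 1.69 CPM at day 35, a log2 fold change of 1.09 (SE 0.40, edgeR adjusted p = 0.0272). In skin of MZCS-0403 males it had 3.59 to 4.37 CPM at day 147 and 2.87 to 4.66 CPM at day 39, which did not pass (log2 fold change 0.09, SE 0.24, edgeR adjusted p = 0.802).

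Nfu_g_1_019230 had 12.1, 2.52, 4.35, 7.71, 5.95 and 2.02 CPM in day 287 replicates 1 to 6, against 0.602, 0.145, 0.275, 0.133 and 0.261 CPM in day 35 replicates 12, 13, 2, 4 and 7. The lowest day 287 library stood above the highest day 35 library. The log2 fold change was 4.28 (SE 0.55, edgeR adjusted p = 4.57e-06). Day 21 males were at 0 to 0.343 CPM and day 147 females between the male ages, at 0.829 to 2.88 CPM. In the strain MZCS-0403 the skin of 3 males had 0.621 to 1.03 CPM at day 147, against 0.0471 to 0.311 CPM in 4 males at day 39 (log2 fold change 2.05, SE 0.55, edgeR adjusted p = 0.00757). In GRZ-D the gene had 0.338 to 0.726 CPM at day 147 and 0 to 0.532 CPM at day 35, which did not pass the test (edgeR adjusted p = 0.0655).

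Nfu_g_1_008172 had 0 counts in all 6 day 287 libraries, against 1.54, 13.2, 0.412, 24.7 and 0.261 CPM in day 35 replicates 12, 13, 2, 4 and 7. It was at least 73.5-fold lower at day 287, taking 3 counts in each day 287 library as the floor (edgeR adjusted p = 0.000455). The day 35 level rested on replicates 13 and 4, and the other 3 were at or below 1.54 CPM. Without replicate 4 the bound was 35.2-fold. With only the 11 libraries of the comparison in the fit, the filter removed this gene, so its call rests on the wider fit. In a fit with GRZ-D skin the same change had an edgeR adjusted p of 0.0429. Day 21 males, at 0 to 0.809 CPM, and day 147 females, at 0 to 0.801 CPM, were also low. Day 287 against day 21 did not pass (log2 fold change -5.07, SE 2.68, edgeR adjusted p = 0.129). Brains of the same fish had 0.722 to 1.03 CPM at day 287 and 0.718 to 2.57 CPM at day 35, so the gene was still counted there at day 287 (log2 fold change -0.79, SE 0.27, edgeR adjusted p = 0.0299).

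Nfu_g_1_022937 had at most 1 count in any day 287 library, against 4.56, 27.6, 7.01, 12.6 and 5.32 CPM in day 35 replicates 12, 13, 2, 4 and 7. It was at least 105-fold lower at day 287 against the same floor (edgeR adjusted p = 5.88e-08), or at least 67.5-fold without day 35 replicate 13. Unlike the other fallen gene, it was also expressed at day 21, at 9.96 to 45.2 CPM, and day 147 females had at most 4 counts. Brain showed the same course. It had at most 1 count at day 287 and 4.39 to 16.0 CPM at day 35 (at least 79.6-fold lower, edgeR adjusted p = 6.03e-09), with 18.6 to 42.4 CPM at day 21. A difference of this change from skin to brain did not pass the test (-1.61 on the log2 scale, SE 1.83, edgeR adjusted p = 0.565). In skin of MZCS-0403 males it had 4.29 to 29.7 CPM at day 21, 0.0778 to 1.20 CPM at day 39 and 0 counts in 3 libraries at day 147. GRZ-D skin began lower, with 0 counts in 5 of 6 libraries and 1.77 CPM in replicate 5 at day 147, against 0.608 to 1.73 CPM at day 35. The age change in GRZ-D did not pass the test (log2 fold change -1.57, SE 0.84, edgeR adjusted p = 0.125).

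**Figure D4:**
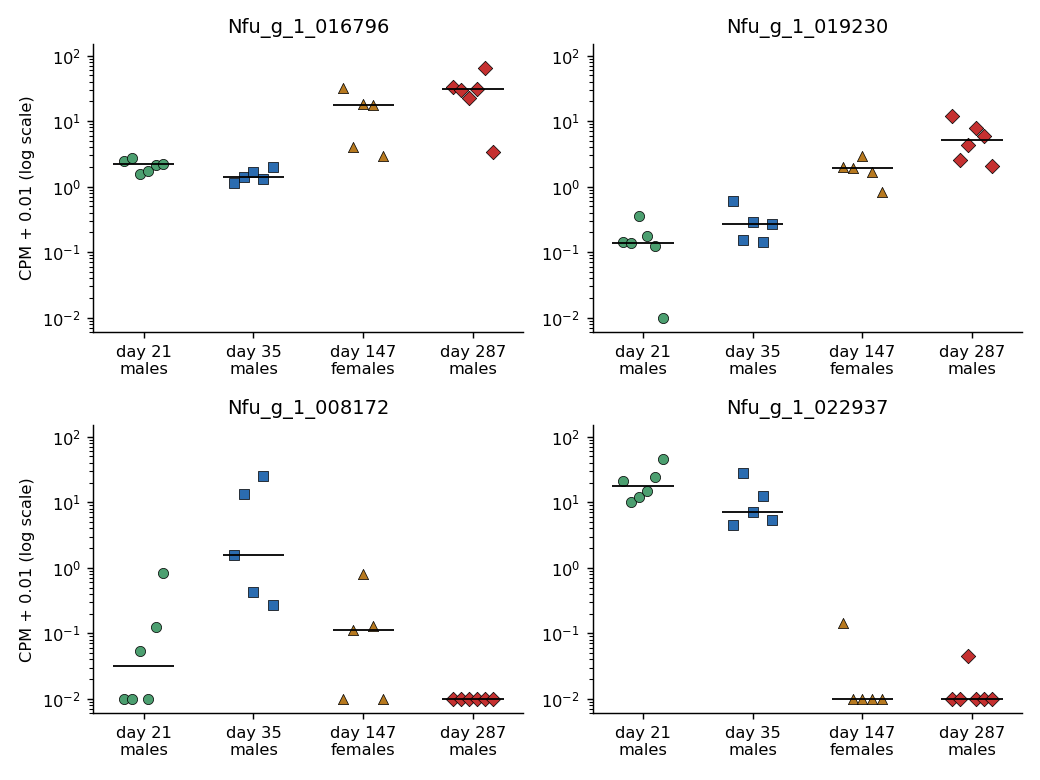
CPM of 4 genes in each of the 22 skin libraries of MZM-0403 by age and sex, on a log axis after adding 0.01, with a line at each group's median. The upper genes are higher in all 6 day 287 males than in all 5 day 35 males, and the lower genes have at most 1 count in a day 287 male.

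Genes were next classed by the tissue in which they were expressed at day 21, in libraries that are not part of the comparison. The 1302 genes of the skin class were at least 4 higher in skin than in brain on the log2 scale at day 21, the 1216 of the brain class at least 4 higher in brain, and 5313 genes were above 3 on that scale in both tissues and within 1 of each other. Skin-class genes were called in 46.9% of cases, 25% higher and 21.9% lower at day 287, against 20% and 24.7% of all genes. Changes of at least 2-fold were called in 174 higher (13.4% of the class) and 217 lower (16.7%), against 7.71% and 11.6% of all genes. Shared genes were called in 51.5%, with 19.7% higher and 31.8% lower. This class leaves out genes of low level. Among all genes with a mean of 10 to 100 CPM 51.5% were called as well, with 25% higher and 26.5% lower. Of the shared genes, 171 (3.22%) were higher and 470 (8.85%) lower by at least 2-fold.

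Among the brain-class genes, 17.3% were higher and 9.38% lower at day 287, with a median log2 fold change of 0.22 against -0.04 over all genes. Only genes that passed the count filter of the skin fit were classed, and low ones can pass through the group where they are high. The levels of brain-class genes in skin were low. Their summed level was 2657 to 3862 CPM in day 287 skin and 2002 to 3772 CPM in day 35 skin, so the groups overlapped. Replicate 4, one of the day 35 libraries that stood apart, had the highest sum of its group. Without it the median was 0.44, and without day 35 replicate 12, which had the lowest sum, it was 0.12. How much nerve or other neural tissue each skin sample held was not tested. The median of the skin class, -0.06, was not stable in sign. It was 0.01 without day 35 replicate 13, and 0.09 when the class was drawn at 2 on the log2 scale.

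**Figure D5:**
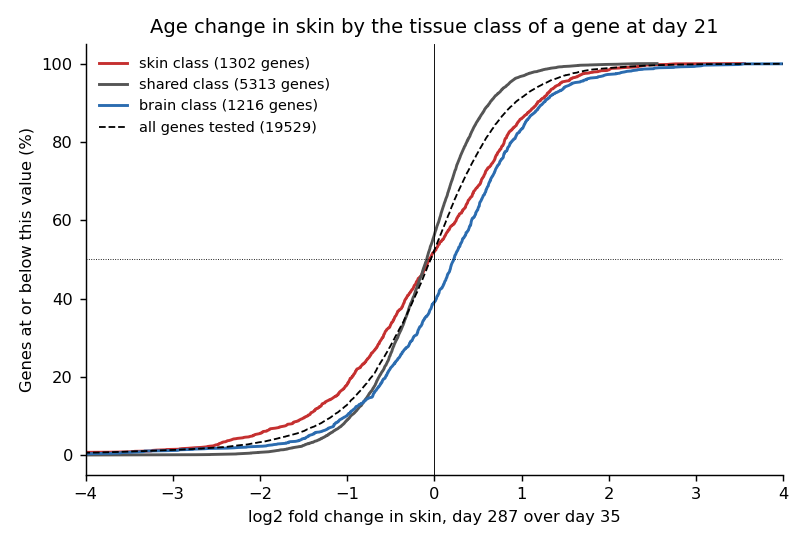
Cumulative share of genes (%) against the log2 fold change in skin of day 287 over day 35, for genes of the skin, shared and brain classes at day 21 and for all 19529 genes tested. The curve of the brain class lies to the right around its median of 0.22, and the curve of the shared class is the steepest.

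Brains of the same 11 fish allowed the age change of skin to be set against that of another tissue. In brain, 6774 of 20864 genes (32.5%) were called between day 287 and day 35. Over the 18631 genes tested in both tissues, 8386 were called in skin and 6198 in brain. The 3246 called in both were 38.7% of the skin list, where 33.3% of all these genes were called in brain. They were 52.4% of the brain list, where 45.0% of all were called in skin. Of these, 2822 (86.9%) changed in the same direction, 1137 higher and 1685 lower at day 287, and 424 in opposite directions. Both tissues come from the same fish, so the lists are not independent.

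The difference between the age change in skin and in brain was tested in 1 fit with the fish as a block. It was called in 5091 of 21492 genes (23.7%), of which 2380 had the more positive change in skin and 2711 the more negative. With DESeq2's size factors the split was 3072 and 2129 and the median over all genes in this fit was 0.06, against -0.04 with TMM scaling. Of the 5140 genes called in skin and not in brain, 2731 (53.1%) also differed between the tissues by this test. The 5140 were chosen by calls from the same libraries, which favours a difference. For the rest of them a call in skin alone does not show that the tissues differed.

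The rule used for naming genes above was applied to this difference too, with a call that held whichever fish was left out, skin and brain together. Among the genes that met it, Nfu_g_1_022857, a gene of the skin class, had the most positive difference. Skin had 15.2, 17.3, 4.67, 14.6, 9.63 and 10.1 CPM in day 287 replicates 1 to 6, against 2.32, 2.06, 1.15, 4.60 and 1.72 CPM in day 35 replicates 12, 13, 2, 4 and 7. The groups only just separated, at day 287 replicate 3 and day 35 replicate 4. Brain had at most 4 counts in any day 287 library and 0 to 1.12 CPM at day 35. The age change in skin exceeded that in brain by 6.07 on the log2 scale (SE 1.26, edgeR adjusted p = 0.00585), with the brain side resting on few counts. In skin alone the log2 fold change was 2.33 (SE 0.38, edgeR adjusted p = 5.30e-05). Day 21 skin had 3.45 to 8.49 CPM, scaled within the skin fit. There day 35 was below day 21 by -1.56 (SE 0.37, edgeR adjusted p = 0.00200), and day 287 against day 21 did not pass (0.77, SE 0.33, edgeR adjusted p = 0.0578). Nfu_g_1_012346 had the most negative difference among genes that met the rule. That of Nfu_g_1_008172, which did not meet it, was larger (-8.97, SE 2.65, edgeR adjusted p = 0.0481). Nfu_g_1_012346 itself had at most 2 counts in any day 287 skin library. Its day 35 replicates 12, 13, 2, 4 and 7 had 0.368, 1.96, 7.87, 18.2 and 12.1 CPM in skin, so it was at least 53.3-fold lower at day 287. Without day 35 replicate 4 the bound was 36.7-fold. The day 35 libraries themselves ranged widely, with replicate 12 near the floor. Day 21 skin was also low, at 0 to 1.30 CPM, and day 35 was above day 21 by 3.81 on the log2 scale (SE 0.98, edgeR adjusted p = 0.00380). Brain was low at both ages, at 0.0375 to 0.552 CPM at day 287 and 0.0501 to 0.315 CPM at day 35, and the difference was -7.33 on the log2 scale (SE 1.54, edgeR adjusted p = 0.00615).

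GRZ-D males gave a second skin comparison from a day 35 baseline, at day 147, since the oldest GRZ-D males were of that age. It shares no library with the one in MZM-0403, but strain and age at sampling differ together. It was taken from a joint fit with the day 287 and day 35 libraries of MZM-0403, and so shares filter, scaling and spread with them. In GRZ-D skin 10047 of 20477 genes (49.1%) were called between day 147 and day 35. A fit of the 12 GRZ-D libraries alone called 9127 of 19069, but the shares that follow come from the joint fit. Of the genes higher at day 287 in MZM-0403, 59.5% were higher and 3.56% lower in GRZ-D at day 147, with a median log2 fold change of 0.63. Among the genes lower at day 287, 51.3% were lower and 5.29% higher in GRZ-D, with a median of -0.56. Over all genes 26.5% were higher and 22.8% lower in GRZ-D.

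The age change differed between MZM-0403 and GRZ-D in 3785 of 20477 genes (18.5%), 1436 with the more positive and 2349 with the more negative change in MZM-0403. In 383 of them both age changes passed the test and had opposite directions. Counting signs of the estimates alone, whether or not they passed, the changes were opposite in 2364, with a positive sign in MZM-0403 in 877 and a negative one in 1487. By the same count of signs, 619 estimates had one sign and were larger in MZM-0403, and 802 were larger in GRZ-D. Of 8548 genes called in MZM-0403 in this fit, 1975 (23.1%) differed from GRZ-D. Their choice used the same libraries, which favours a difference.

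Nfu_g_1_013134, a gene of the brain class, had the most positive difference from GRZ-D among genes that met the naming rule. MZM-0403 skin had 5.70, 8.93, 4.92, 11.96, 5.39 and 6.70 CPM in day 287 replicates 1 to 6, against 0.966, 1.35, 0.873, 1.59 and 1.40 CPM in day 35 replicates 12, 13, 2, 4 and 7. GRZ-D skin had 0.677 to 3.75 CPM at day 147 and 2.59 to 6.77 CPM at day 35. The gene was higher with age in MZM-0403 (log2 fold change 2.57, SE 0.38, edgeR adjusted p = 2.10e-05) and lower with age in GRZ-D (-1.05, SE 0.34, edgeR adjusted p = 0.0147). The difference was 3.61 (SE 0.51, edgeR adjusted p = 0.000109). Nfu_g_1_010906 had the most negative difference among genes that met the rule. Nfu_g_1_022937, which did not meet it for this difference, had a larger one (-8.53, SE 1.65, edgeR adjusted p = 0.00154). For Nfu_g_1_010906, skin of MZM-0403 had at most 4 counts in any day 287 library, 0 to 0.141 CPM. Its day 35 replicates 12, 13, 2, 4 and 7 were at 0.548, 1.82, 11.5, 25.3 and 14.1 CPM. GRZ-D skin was level, at 1.14 to 3.08 CPM at day 147 and 1.46 to 3.24 CPM at day 35 (log2 fold change -0.05, SE 0.55, edgeR adjusted p = 0.947). The age change was more negative in MZM-0403 by -7.52 on the log2 scale (SE 0.99, edgeR adjusted p = 6.68e-05). At day 21 this gene was uneven in MZM-0403 skin, with 5.92 CPM in replicate 5, 2.31 CPM in replicate 1 and at most 1 count in the other 4.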

How the data were processed

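Per the labels' protocols, RNA of brain and skin was isolated with the RNeasy Mini Kit, and libraries were prepared with TruSeq RNA v2. The deposited table holds raw counts for 26739 gene IDs in 168 columns, which the authors did not normalise. Per the submitters' processing notes, the tools included bcl2fastq 1.8.4, STAR 2.5.1b and featureCounts 1.5.0, and the genome build, annotation and strand setting are not given in the sources used here. Genes with close copies or overlapping neighbours could therefore share reads, and this could not be checked per gene.

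The main test was the robust, 2-sided quasi-likelihood F-test of edgeR 4.0.16, run in R 4.3.3 with TMM scaling. Genes passed edgeR's filter at a minimum count of 10, which left 19529 in skin. Adjustment followed Benjamini and Hochberg over all genes of a comparison, and calls were made at an adjusted p under 0.05. The main fit held the 22 skin libraries of MZM-0403, because 3 groups of skin libraries of other strains were at odds with their tissue label. Correlations with the skin and brain profiles are given for MZM-0403 libraries only. The tissue label of the GRZ-D and MZCS-0403 libraries used here therefore rests on the deposited labels. The SE is the log2 fold change divided by the square root of F. CPM are TMM-scaled within the fit concerned. Correlations, tissue classes and principal components used log2 CPM with a prior count of 2. Floors take 3 counts per library and cover counting error only. Genes were named by rank of log2 fold change among called genes with no overlap, 5 CPM or more on average in the higher group and a call kept with any library left out. For the difference between tissues, the skin and brain of a fish were left out together. Alternatives were DESeq2 1.42.0, limma 3.58.1 voom, other scalings, filters and sets of libraries, and each library or fish left out. The method was tested on simulated data. The members, lists, comparisons and tests were chosen with earlier results of these data known. No 2 libraries of a group were alike within sampling noise.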

Additional observations from a re-analysis of the deposited data

Results flagged for a closer look

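Of 49 groups of values examined for a single library far from the rest, 5 held one. Chance alone flags about 1 in 20 where values follow a normal distribution. CPM near 0 do not follow it, so the 5 cannot be set against that rate. Nfu_g_1_008172 was at 0.809 CPM in day 21 replicate 6, against 0 to 0.113 CPM in the other 5 day 21 skin libraries. It was at 0.801 CPM in replicate 3 of the day 147 females, against 0 to 0.121 CPM in the other 4. Nfu_g_1_022937 had 0.134 CPM, from 4 counts, in replicate 1 of the day 147 females, where the other 4 had 0. Nfu_g_1_022857 had 0.105 CPM, also from 4 counts, in the brain of day 287 replicate 3, against 0 to 0.0263 CPM in the other 5 brains. The summed level of brain-class genes was 3862 CPM in the skin of day 287 replicate 6, the library with the fewest counts of the 11, against 2657 to 3081 CPM in the other 5.

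A test of the difference itself flagged 5091 genes whose age change differed between skin and brain. Among them Nfu_g_1_022857 differed by 6.07 and Nfu_g_1_012346 by -7.33 on the log2 scale, skin minus brain. The age change differed between MZM-0403 and GRZ-D in 3785 genes, among them Nfu_g_1_013134 by 3.61 and Nfu_g_1_010906 by -7.52, MZM-0403 minus GRZ-D.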

How the results depend on the processing

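Of 347 recomputed values of 28 results, 333 counted as kept, by direction and side of the threshold or by an allowed range. For numbers of genes called, the range applied to the number alone, whatever the directions. It took in 6827 against 5091 but not 5461 against 8725. The 333 therefore include turned balances. With total counts only, 4073 genes were higher and 3789 lower at day 287, against 3910 and 4815. With DESeq2's size factors the difference between tissues split 3072 and 2129, against 2380 and 2711. The 333 include the values of named genes with a library or fish left out, which the naming rule fixed in advance. The count of genes changed at day 287 against day 35 was 5461 to 10362 over 10 alternatives, and the 5461 came from adding the replicate number as a block. The numbers do not pair the fish: day 287 and day 35 share only numbers 2 and 4, and the deviations of same-numbered skin libraries correlated at -0.164 and -0.114, against -0.172 to 0.252 for other numbers. The count with at least 2-fold change was 3121 to 4546, and leaving out 1 library gave 3483 to 4322. With limma's voom and quality weights, 7987 genes differed in age change between skin and brain and 6537 between the strains. Leaving out 1 fish, its skin and brain together, gave 3860 to 6827 for the tissues. Leaving out 1 library gave 3163 to 5041 for the strains. Without the fish as a block, 5380 genes differed between the tissues. The share of the 10 most counted genes passed the exact permutation test over the 50 (-4.81 percentage points, p = 0.0130) and the 100 most counted genes (-4.43, p = 0.0455), and leaving out 1 library gave -2.60 to -1.06 with the 10. The difference in genes with at least 1 CPM was -78.8 to 161 with 1 library left out, and changed sign in 6 of 11 cases. With classes drawn at 2 on the log2 scale, the skin-class median turned to 0.0949 and the share of brain-class genes called lower was 15%. Leaving out 1 day 35 library gave skin-class medians of -0.0871 to 0.00702. The causes were not tested. The 8 named genes kept their direction and call in every alternative that gave a value. For Nfu_g_1_008172 that was 8 of 10. The filter removed it in the other 2, the fit of only the 11 libraries compared and the stricter filter on low counts. With a library or fish left out, their calls were kept by the naming rule itself, so those values are no check. Depth limits the statements on genes below 1 CPM.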

Other observations

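Nfu_g_1_008172, the gene with 0 counts in all day 287 skin libraries of MZM-0403, was high in single skin libraries of the other strains. In GRZ-D it was at 90.4 CPM in day 147 replicate 2 and at most 0.101 CPM in the other 5, and at 60.9 CPM in day 35 replicate 2 and at most 0.214 CPM in the other 5. In MZCS-0403 males of day 21 it was at 202 CPM in replicate 6 and at most 2.61 CPM in the other 5. It did not change with age in GRZ-D by the test (log2 fold change 0.57, SE 1.83, edgeR adjusted p = 0.817), and the difference between the strains in the age change missed the threshold (-11.31, SE 4.73, edgeR adjusted p = 0.103).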
